A study of Mus musculus with 3 samples.

Results

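Genes for the enzymes that write and erase histone marks, and for the motors that move nucleosomes, were examined in double-negative thymocytes for H3K27ac, the acetylation of lysine 27 on histone H3 that is found at promoters and enhancers in use. The set holds the protein-coding genes on chromosomes 1 to 19 and X whose symbol starts with Kdm, Kmt, Kat, Hdac, Setd or Chd and a digit, or with Smarca, Smarcb, Smarcc, Smarcd or Smarce, which gave 75 of 21631 genes. There were 17 Kdm, 8 Kmt, 8 Setd, 8 Kat, 11 Hdac, 10 Chd and 13 Smarc genes. The rule uses symbols only, but the set was chosen with earlier results of these data known.

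The cells came from thymus of wild-type C57BL/6J mice of 5 to 7 weeks, were sorted straight from the animal as CD4-CD8- and CD25+CD44-/+, and made up 1 group of 2 replicates. Chromatin was fixed in 1% PFA for 10 minutes, captured with an antibody against histone H3, joined to adapters and pulled down a second time for H3K27ac. The labels do not say whether the replicates are separate animals or sorts, and no other genotype, stage or treatment stands beside them here. The input sample was not analysed here. The data are 2 lists of peaks, with 12228 peaks on these chromosomes in replicate 1 and 9429 in replicate 2. They hold no read counts, so the depth is unknown. Of fixed markers of double-negative thymocytes, 6 of 16 had gene-end peaks in both replicates (Cd3d, Cd3e, Cd3g, Dntt, Tcf7 and Kit), against 17% of all genes. Ptcra, Rag1, Rag2 and Cd44 had no bp within 25 kb that the replicates shared. None of the markers of later thymocytes (0 of 6), B cells (0 of 6), myeloid cells (0 of 6), erythroid cells (0 of 5) or thymic stroma (0 of 5) had a gene-end peak in either replicate. Over all genes 25.4% had one in replicate 1 and 22.5% in replicate 2, and these lists are short. Some of these markers had shared bp within 25 kb, with the most at Cd79a (1223 bp) and Elane (502 bp).

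Histone methyltransferases of the Kmt and Setd families add methyl groups to lysines, and the Kdm demethylases remove them. Kat enzymes acetylate lysines and Hdac enzymes take the acetyl group off, and both usually work as parts of large complexes. Chd and Smarc proteins belong to ATP-driven remodelling complexes, among them NuRD (Chd3 to Chd5), ISWI (Smarca1 and Smarca5) and BAF (Smarca2 and Smarca4 with the other Smarc subunits), and several of these complexes are needed for thymocyte development. Peaks tell whether H3K27ac was detected at a gene that encodes such a protein. They do not measure the protein or its activity.

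Acetylated here means that a peak of replicate 1 and a peak of replicate 2 each came within 1 kb of an annotated end of the gene, called its gene end. A total of 4 windows of 300 bp around a gene start lay wholly under peaks of both replicates, and their sequences are shown because they are the best covered starts of the set. Each runs 5′ to 3′ on the coding strand from 250 bp before to 50 bp after the start, from RefSeq on GRCm38.p6 (mm10), with letters in capitals where 1 of 10 searched motifs matched.
Kat5, chr19:5610045-5610344, minus strand: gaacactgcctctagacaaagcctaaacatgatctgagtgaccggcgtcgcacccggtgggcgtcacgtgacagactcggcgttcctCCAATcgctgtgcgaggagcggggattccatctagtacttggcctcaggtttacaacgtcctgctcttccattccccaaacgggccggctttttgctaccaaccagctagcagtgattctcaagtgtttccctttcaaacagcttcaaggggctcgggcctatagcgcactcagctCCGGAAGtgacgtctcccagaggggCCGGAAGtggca
Kdm2b, chr5:122988458-122988757, minus strand: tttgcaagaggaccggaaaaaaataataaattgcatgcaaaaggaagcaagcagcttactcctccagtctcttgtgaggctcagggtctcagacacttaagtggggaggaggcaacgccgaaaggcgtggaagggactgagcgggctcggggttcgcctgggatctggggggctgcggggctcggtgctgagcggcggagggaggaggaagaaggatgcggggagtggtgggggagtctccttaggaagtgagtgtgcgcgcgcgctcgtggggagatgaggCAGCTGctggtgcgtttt
Setd7, chr3:51560774-51561073, minus strand: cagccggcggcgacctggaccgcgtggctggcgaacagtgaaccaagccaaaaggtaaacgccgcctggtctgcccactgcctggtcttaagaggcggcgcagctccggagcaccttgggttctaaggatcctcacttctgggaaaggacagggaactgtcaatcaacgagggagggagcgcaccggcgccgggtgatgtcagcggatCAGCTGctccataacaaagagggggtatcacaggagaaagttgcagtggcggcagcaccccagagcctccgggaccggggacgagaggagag
Smarca5, chr8:80739410-80739709, minus strand: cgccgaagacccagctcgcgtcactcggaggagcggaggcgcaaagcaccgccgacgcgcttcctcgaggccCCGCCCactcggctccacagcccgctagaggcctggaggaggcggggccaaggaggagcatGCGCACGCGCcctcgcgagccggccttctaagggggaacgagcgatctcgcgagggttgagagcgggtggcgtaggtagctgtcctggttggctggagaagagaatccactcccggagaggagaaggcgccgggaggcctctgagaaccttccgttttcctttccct
The window of Kat5, an acetyltransferase of the MYST group, held CCAAT once and CCGGAAG, a core of Ets factor motifs, at 2 positions. The windows of Kdm2b, an H3K36 demethylase, and Setd7, a lysine methyltransferase, each held CAGCTG, an E-box. The window of Smarca5, the ATPase of ISWI, held GGGCGG, the GC box and the NRF1 motif. On either strand, and with 1 window per gene, these motifs occurred in 39.2% (CCAAT), 12.1% (CCGGAAG), 15.3% (CAGCTG), 46.7% (GGGCGG) and 6.56% (NRF1) of 17274 gene windows. The 4 windows held 18 to 32 CpG, against a median of 13 over all genes. A match is a match of letters and says nothing of a bound factor.

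Of the 75 genes, 37 (49.3%) were acetylated in both replicates, against 17% of all protein-coding genes. Replicate 1 alone marked 44 of them (58.7%, against 25.4% of all genes) and replicate 2 alone 49 (65.3%, against 22.5%). In 12 genes the peak was in replicate 2 only, in 7 in replicate 1 only, and 19 genes had no gene-end peak in either list. Over all 21631 genes these counts were 1190, 1819 and 14949, with more genes in replicate 1 only than in replicate 2 only. The share was above that of all genes in 6 of the 7 families, from 47.1% of Kdm genes to 75% of Kmt genes. The Hdac family had 1 of 11 (9.09%). Its place below the share of all genes was lost with replicate 2 by itself (45.5%, against 22.5%), with a peak in either replicate (45.5%, against 30.9%) and with a window of 2.5 kb (27.3%, against 19.1%). These shares describe the set beside all genes, and no test of the set was made.

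**Figure D1:**
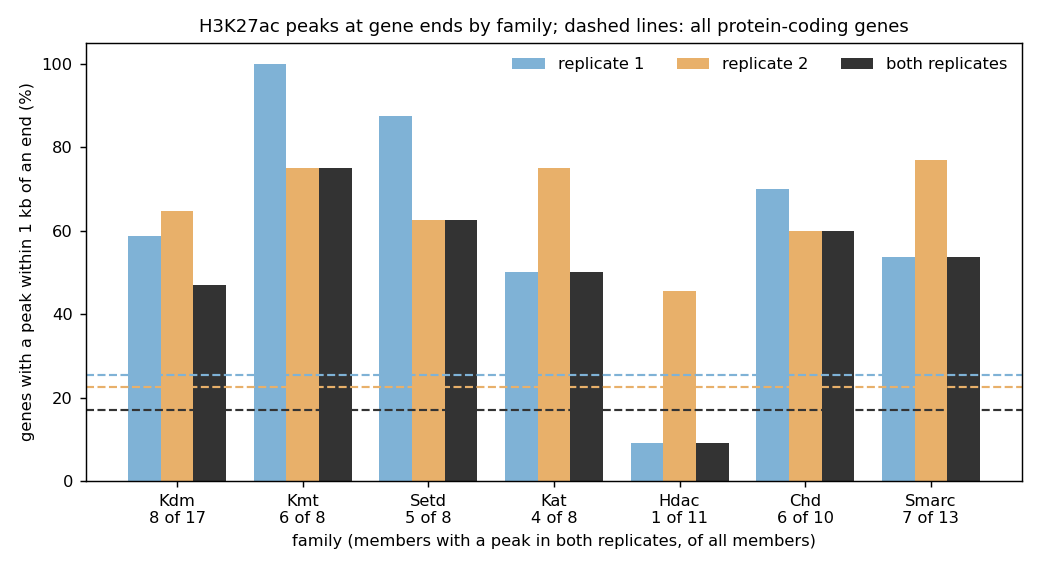
Share of each family with an H3K27ac peak within 1 kb of a gene end, in percent of its members, for replicate 1, replicate 2 and both. Dashed lines give the same shares over all 21631 protein-coding genes (25.4%, 22.5% and 17%). The bar for both replicates lies above its line in every family but Hdac, where it stands at 9.09%.

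Covered length was a second measure. It counts bp that lie under a peak in each list, up to 25 kb from an end of the gene, and keeps the end with more. Its median was 313 bp over the 75 genes and 0 bp over all genes, and 62.7% of the set had any covered bp, against 30.7%. By family the median was highest in Kmt (637 bp) and lowest in Hdac (0 bp), as with the gene-end share. The families between stood in a different order. At least 1000 bp were covered near 17 of the 75 (22.7%, against 8.47%). Chd2 (3547 bp), Kdm6b (3365 bp) and Kmt2e (2691 bp) had the most. Counting each replicate by itself, the median was 950 bp in replicate 1 (against 278 bp over all genes) and 804 bp in replicate 2 (against 0 bp). Both were above the shared length of the set. Neighbours contribute to it. Of the 68 shared regions near 47 of the genes, 37 lay at a gene end of a member, 7 lay inside a member away from its ends, 15 lay at the end of another protein-coding gene and 9 at none.

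**Figure D2:**
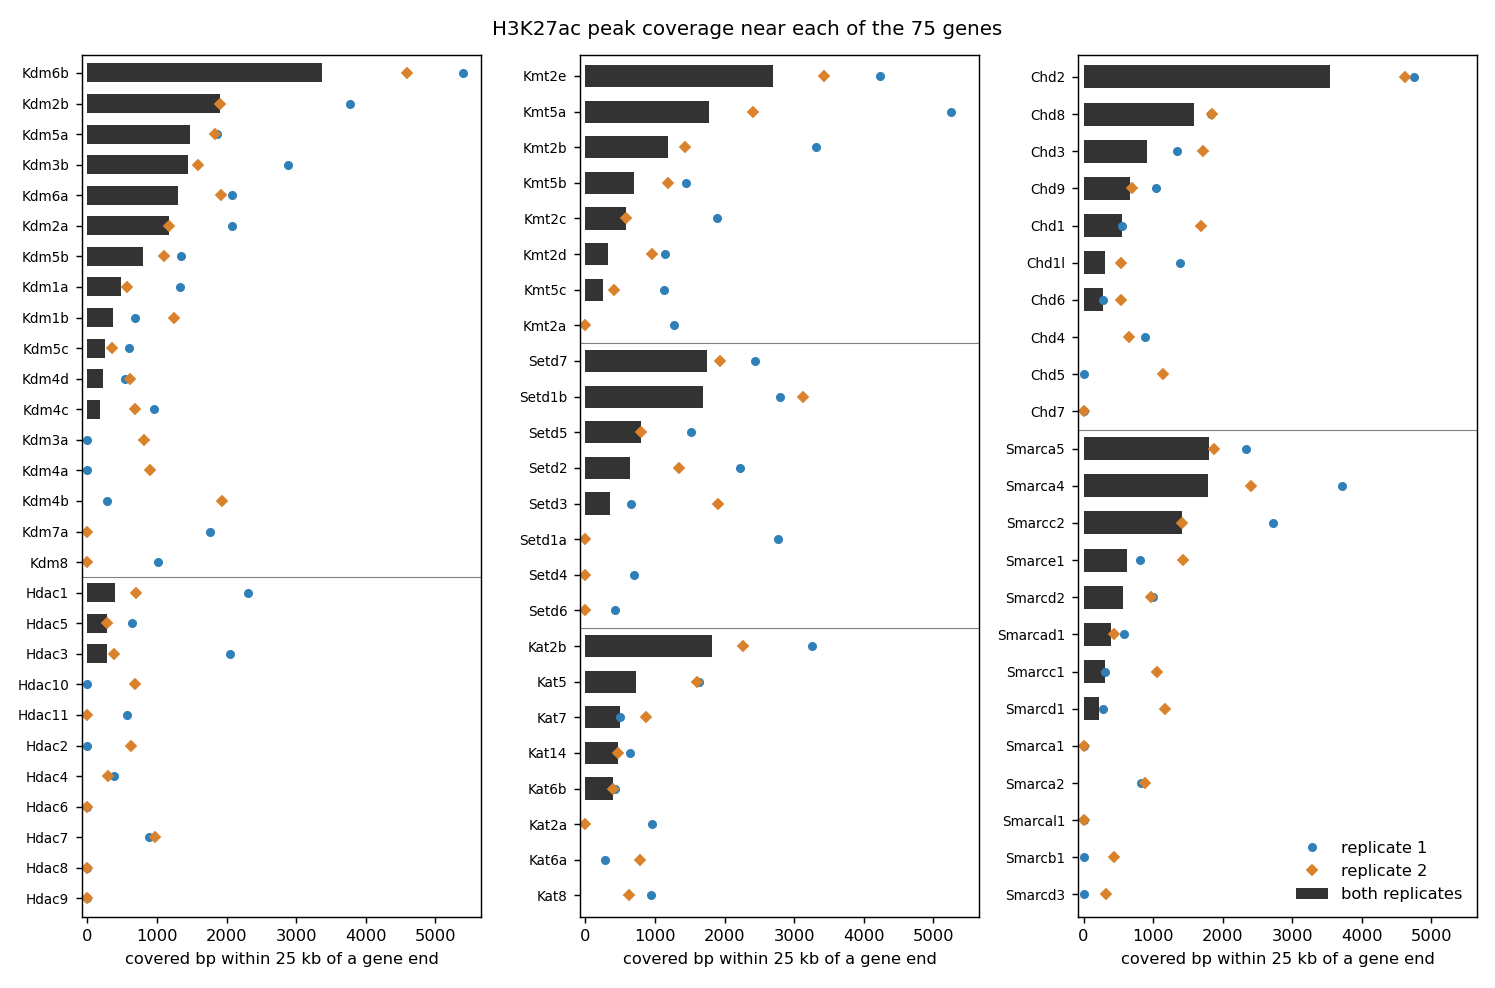
Covered bp within 25 kb of a gene end for each of the 75 genes, by family. Bars give bp covered by both replicates, circles replicate 1 and diamonds replicate 2. Chd2 (3547 bp), Kdm6b (3365 bp) and Kmt2e (2691 bp) have the longest bars, and no Hdac gene exceeds 402 bp.

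All 5 genes of the Kmt2 group had a gene-end peak in replicate 1 (against 25.4% of all genes). In replicate 2, 3 of 5 had one (against 22.5%). Kmt2e, which carries a SET domain and a PHD finger that reads H3K4 methylation, had the widest peaks. They measured 3790 bp in replicate 1 and 2636 bp in replicate 2, with fold enrichments of 2.42 and 1.97, and the second lay wholly within the first. The fold is the authors' ratio of a peak's signal to background. Kmt2c, which places H3K4 monomethylation at enhancers, had peaks of 1883 bp and 583 bp with folds of 1.84 and 1.98. Kmt2d, its partner in that role, had peaks at its 3′ end, where they also lay at an end of Prkag1. A further shared region of 317 bp lay upstream of its listed start, which is 2872 bp inside the annotated end. Kmt2a, which maintains Hox expression in blood cells, had a peak of 1271 bp in replicate 1 (fold 1.86) and none in replicate 2. Kmt2b had a gene-end peak of 454 bp in replicate 1 only, and its 1192 covered bp lay at the ends of Hspb6 and Proser3.

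All 3 Kmt5 genes, whose enzymes methylate H4K20, were acetylated in both replicates. Kmt5c had folds of 3.17 and 3.15, with peaks of 1129 bp and 403 bp at the 5′ end. Kmt5b had folds of 2.65 and 2.22. Kmt5a, the monomethyltransferase, had folds of 2.03 and 2.31, and 229 bp at its start were shared. Most of the 1780 bp near Kmt5a came from regions of 412 bp and 1139 bp at the ends of Rilpl2 and Snrnp35.

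Of the Setd1 pair, which are the main enzymes that trimethylate H3K4, Setd1b was acetylated in both replicates and Setd1a in replicate 1 only (1513 bp, fold 1.99). The peaks of Setd1b measured 322 bp and 3119 bp, with folds of 2.43 and 2.93, and both lay within 1 kb of an end of Rhof too. Among the other 6 Setd genes, Setd2, Setd3, Setd5 and Setd7 were acetylated in both. Setd2, which trimethylates H3K36 in transcribed genes, had folds of 1.34 and 1.08 with −log10 q of 7.77 and 3.48. Setd5 had folds of 2.02 and 5.05, and its peaks lay at an end of the noncoding gene Gt(ROSA)26Sor, the Rosa26 locus. Setd7 had peaks of 2151 bp and 1936 bp with folds of 2.82 and 2.17. Setd3, which methylates actin, shared its peaks with an end of Ccnk. Setd6 had a peak in replicate 1 only and Setd4 had none at its ends.

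Demethylase genes are given by substrate group, in groups too small to compare. All 3 Kdm5 genes, whose enzymes remove H3K4 methylation, were acetylated, and both Kdm2 genes were. Kdm5a had the tallest peak of the set, with folds of 6.87 in replicate 1 and 4.90 in replicate 2 and widths of 1514 bp and 1830 bp. Its peaks also lay at an end of Ccdc77. Kdm5b had folds of 1.88 and 2.66 and Kdm5c had 1.99 and 2.40. Kdm2b, a subunit of a variant Polycomb complex, had peaks of 3770 bp and 1902 bp over its start (folds 1.93 and 2.09), and Kdm2a had folds of 2.23 and 3.24. Kdm1a, known as LSD1, had folds of 2.41 and 2.44, and its paralogue Kdm1b had a peak in replicate 1 only.

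Enzymes of the Kdm3 and Kdm4 groups act on H3K9, and some of the Kdm4 group also on H3K36. Their genes were acetylated in 1 of 2 and 1 of 4 cases. With replicate 2 by itself it was 2 of 2 and 3 of 4. Kdm3b had folds of 1.54 and 2.91. Kdm3a had no peak in replicate 1 and a tall one in replicate 2, of 806 bp with a fold of 5.16 and a −log10 q of 14.6. Kdm4d was the Kdm4 gene marked in both (folds 1.2 and 1.82), in peaks that also lay at an end of Cwc15. Kdm4a and Kdm4b had peaks in replicate 2 only. Kdm7a had a peak in replicate 1 only, and Kdm8 had none at its ends.

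The H3K27 demethylases Kdm6a and Kdm6b had no gene-end peak in either list, yet both had shared peaks inside the gene. At Kdm6a, known as UTX, peaks of 2079 bp and 1913 bp (folds 2.17 and 2.22) shared 1296 bp that began 181 bp after its listed start, which lies 1713 bp inside the annotated gene end. At Kdm6b, known as JMJD3, peaks of 3961 bp and 2443 bp (folds 2.15 and 2.35) shared 2443 bp at a distance of 8880 bp from the nearest end. A second region of 922 bp lay outside Kdm6b at ends of Cyb5d1, Naa38 and Tmem88. Kdm4c and Hdac4 had peaks of both replicates within 1 kb of listed starts that are 9382 bp and 15361 bp inside the gene. At Kdm4c 182 bp were shared. At Hdac4 the peaks of the replicates lay on opposite sides of the start and shared nothing.

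Acetyltransferase genes were acetylated in 4 of 8 cases. Kat2b, known as PCAF, had peaks of 2091 bp and 1090 bp at its start (folds 1.97 and 2.45) and a further 728 shared bp inside the gene, and its homologue Kat2a had no gene-end peak. Kat14, a subunit of the ATAC complex, had folds of 2.29 and 2.24 and shared its peak with an end of Pet117. Kat7, known as HBO1, had folds of 1.93 and 2.25. Kat5, known as TIP60, had peaks over its listed start with folds of 2.88 and 3.87. The annotated end lies 1462 bp further out, so that the peak of replicate 2 counted at the gene end was another one, at its 3′ end and at Rnaseh2c (fold 4.22). Kat6a, known as MOZ, and Kat8, known as MOF, had a peak in replicate 2 only. Kat6b had a shared region of 401 bp that lay 1664 bp from its end.

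Of the 11 deacetylase genes 1 was acetylated in both replicates (9.09%, against 17% of all genes). Shared bp within 25 kb lay near 27.3% of them, against 30.7% of all genes. Hdac3, a class I enzyme that works in corepressor complexes, was the member marked in both lists, with peaks of 1393 bp and 386 bp, folds of 3.44 and 1.76, and an end of Rell2 at the same place. Hdac1 and Hdac2, the class I enzymes of NuRD and Sin3 complexes, had a peak in replicate 2 only, with folds of 2.21 and 2.65. Hdac7, a class II enzyme of thymocytes, and Hdac10 were also marked in replicate 2 only (folds 2.56 and 2.54). No Hdac gene was marked in replicate 1 only. The 402 bp near Hdac1 lay at the end of Marcksl1, and a region of 316 bp in the other direction lay in Lck, the kinase of the T cell receptor. Hdac6, Hdac8 and Hdac9 had no peak of either replicate within 25 kb, while Hdac4, Hdac5 and Hdac11 had some but none at a gene end. Whether the Hdac share differs from that of the other families was not tested, and with replicate 2 by itself it was 5 of 11.

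Chd genes were acetylated in 6 of 10 cases. Chd1 and Chd2, which act along transcribed genes, both were. Chd2 had folds of 3.48 and 3.17 in peaks of 2260 bp and 1364 bp, which also lay at an end of Chaserr, the noncoding gene next to Chd2. A second region of 2183 bp, 15241 bp outside the gene, lay at an end of Chaserr too (folds 4.0 and 2.15). Chd1 had folds of 2.6 and 2.42. Of the NuRD group, Chd3 had folds of 1.68 and 2.02 in both lists, Chd4 had a peak in replicate 1 only (fold 1.93), and Chd5 had none at its ends. Chd8 had peaks of both replicates at each end, with folds of 2.46 and 1.4 at the 5′ end and 1.83 and 1.49 at the 3′ end next to Supt16. Chd6 and Chd1l were acetylated with 278 and 303 shared bp, and Chd7 and Chd9 had no gene-end peak. The 674 bp near Chd9 lay at the end of Rbl2.

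Smarc genes were acetylated in 7 of 13 cases. Smarca4, known as BRG1, had peaks of 2576 bp and 939 bp (folds 1.38 and 1.12, −log10 q of 9.61 and 6.02), and its alternative in BAF complexes, Smarca2, had a peak in replicate 2 only. Smarca5 had folds of 2.52 and 2.74 and 1805 shared bp across its start, while Smarca1, its ISWI paralogue, had no peak of either replicate within 25 kb. Among the 7 non-catalytic subunits of BAF, Smarcc2, Smarcd1, Smarcd2 and Smarce1 were marked in both replicates. Smarcc2 had folds of 2.47 and 2.25, Smarcd1 had 1.88 and 2.42, Smarcd2 had 1.87 and 1.98, and Smarce1 had 2.21 and 3.38. Smarcb1 and Smarcc1 were marked in replicate 2 only, and Smarcd3 was not marked. Smarcad1, a remodeller of the Snf2 family, had folds of 3.36 and 2.28, and Smarcal1 had no peak within 25 kb.

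The gene-end peaks of the set were not taller than others. At the acetylated members the median fold was 2.11 in replicate 1 and 2.29 in replicate 2, against 2.16 and 2.32 over all peaks at ends of protein-coding genes. Their median widths were 1129 bp and 871.5 bp, and over all gene-end peaks of members, called in both lists or not, 1056 bp and 805 bp, against 760 bp and 681 bp. The regions that the replicates shared at listed starts had a median of 461 bp in members and 552 bp in all genes. These medians were not tested. The authors' q is a p-value adjusted by the peak caller. It was at most 0.05 in 15 of 39 peaks of acetylated members in replicate 1 (38.5%) and in 19 of 38 in replicate 2 (50%). Over gene-end peaks of members, called in both lists or not, it was 18 of 46 (39.1%) and 23 of 50 (46%). All gene-end peaks, also called in both lists or not, had 27% and 43%. Requiring that q of the peaks in each replicate left 11 of the 75 genes (14.7%), against 2.67% of all genes: Chd2, Kat5, Kdm4d, Kdm5a, Kmt5c, Setd2, Setd3, Setd5, Smarca4, Smarca5 and Smarcad1. No Hdac gene was among them. A limit of 1e-05 left Kdm4d, Kdm5a and Smarca4 (4%, against 0.740%).

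Of these 11, 6 lie on chromosomes 6 and 9, where peaks past the q limit had smaller q than elsewhere. Among such peaks the median −log10 q was 6.02 and 4.07 in replicates 1 and 2 on chromosome 6, and 8.43 and 5.93 on chromosomes 9, 14 and 17, against 2.07 and 2.13 on the others. On chromosomes 9, 14 and 17, 74.3% of peaks with a q of at most 0.05 had a fold under 2 in replicate 1 and 70.3% in replicate 2, against 3.69% and 3.59% on the chromosomes other than these and 6. Kdm4d, Setd2 and Smarca4 on chromosome 9 have such folds under 2. The part of these chromosomes in the count was not tested beyond leaving them out. Kdm5a, Setd5 and Smarcad1 lie on chromosome 6. Without chromosomes 6, 9, 14 and 17, a choice made after seeing the data, 28 of 58 genes (48.3%) were acetylated, against 17.1%. With the q limit as well, 5 of 58 remained (8.62%), against 1.54%.

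**Figure D3:**
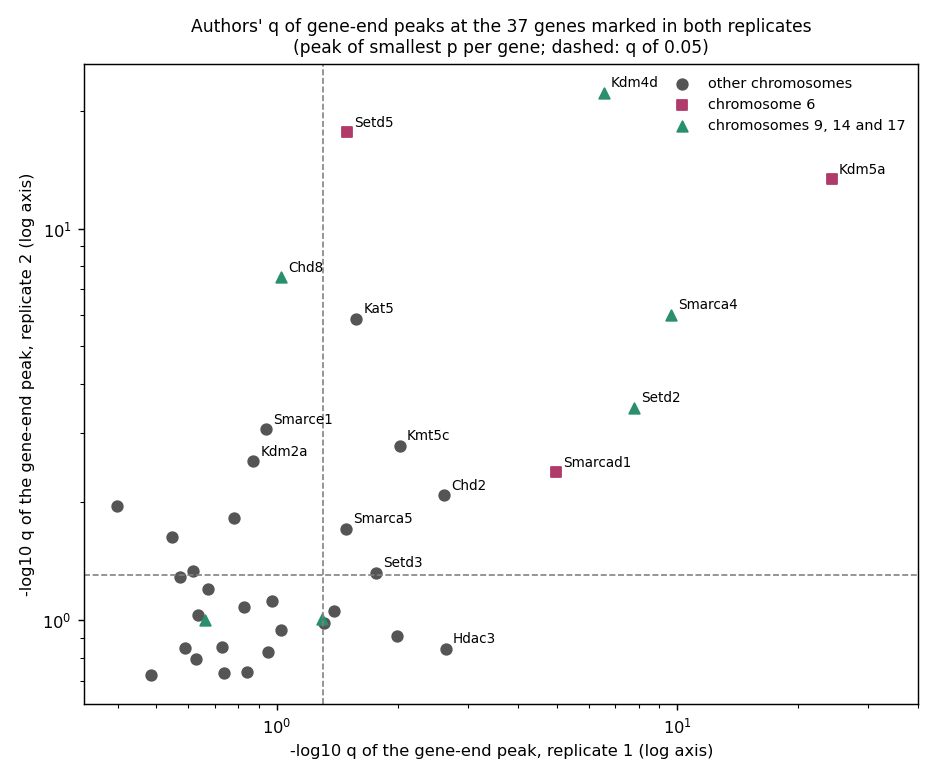
The −log10 q of the gene-end peak with the smallest p at each of the 37 genes acetylated in both replicates, replicate 1 against replicate 2, on log axes. Dashed lines mark a q of 0.05. Most genes lie under at least 1 line, and 11 lie past both, of which 3 are on chromosome 6 (squares) and 3 on chromosome 9 (triangles).

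Most regions shared near a start lay downstream of it. RefSeq start windows were listed for 58 of the 75 genes, and by starts alone 28 of 58 (48.3%) were acetylated in both replicates, against 18.4% of 17274 genes. In 27 of them the replicates also shared bp, and the centre of the shared region lay downstream of the start in 20 (74.1%, against 65.3% of 3081 genes) with a median position of 254.5 bp after it (against 138 bp). The shared region included the start itself in 7 of 27 (25.9%), against 53.6% of all genes. The 7 were Kat14, Kat5, Kdm2b, Setd2, Setd7, Smarca5 and Smarcd1. At Kmt2c, Kmt2d, Setd3, Smarcc2 and Kdm4d the shared region lay upstream and did not reach the start. With 27 genes and 2 lists these are descriptions.

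**Figure D4:**
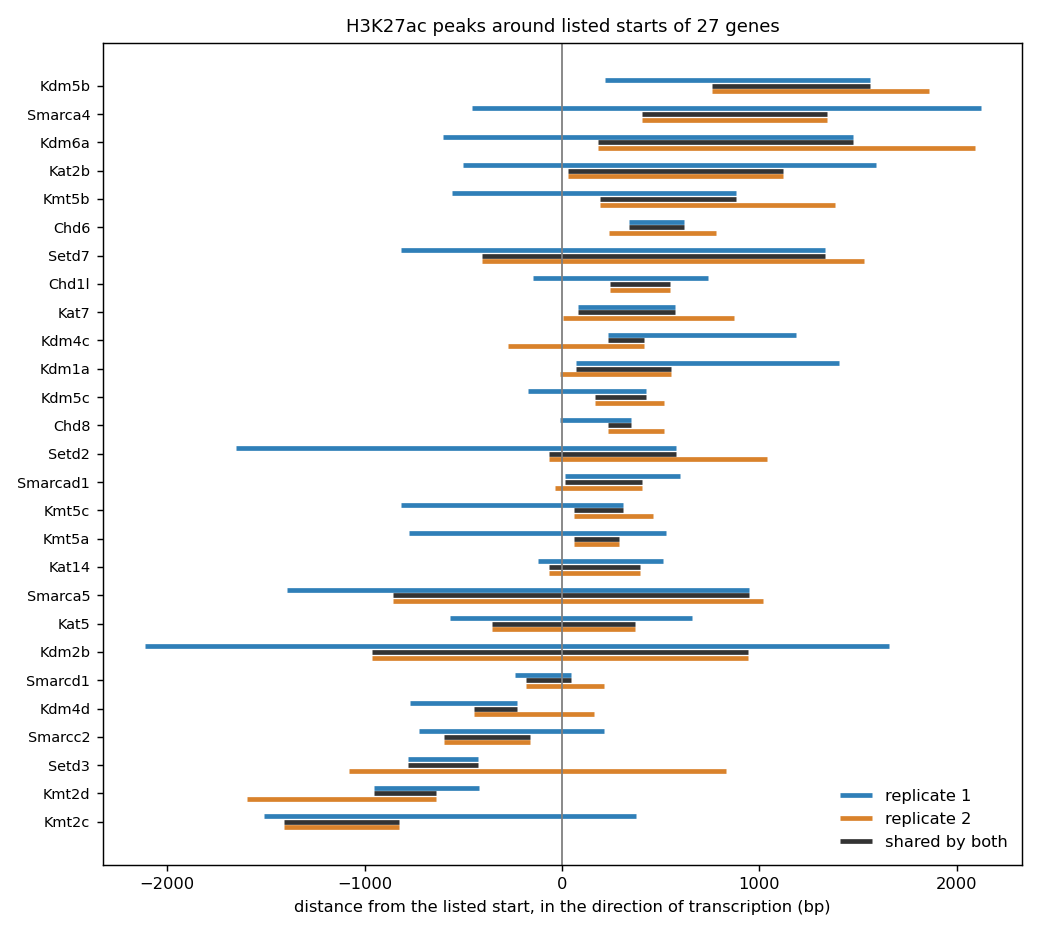
Peaks of replicate 1, peaks of replicate 2 and their overlap around the listed start of 27 genes, in bp along the direction of transcription. Genes are ordered by the centre of the overlap, which is downstream of the start in 20 and includes the start in 7.

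Start windows of the set were rich in CpG whether or not the gene was acetylated. The median was 22 CpG in 300 bp at 27 acetylated members and 21 at 31 others, against 24 and 10 over all acetylated and other genes. Among genes with at least 10 CpG, 25 of 50 members were acetylated (50%), against 27.8% of all such genes. The gap was smaller there than without the split. Among those with fewer CpG, 2 of 8 members were acetylated, against 3.88%. The 2 were Setd5 and Smarcd2, whose peaks lay at the gene end. Neither had a peak within 1 kb of the listed start at which CpG were counted. The part of CpG content in the result was not tested. Gene length was another difference, with a median of 49.5 kb in the set and 17.3 kb over all genes. Of all genes of at least 49.5 kb 17.3% were acetylated, and of shorter ones 16.9%. The part of length in the result was not tested.

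Motifs were counted in the start windows of 27 acetylated members and of 3043 acetylated genes with a listed window. GGGCGG occurred in 16 of them (59.3%, against 68.1%), CCAAT in 12 (44.4%, against 39.1%) and CCGGAAG in 4 (14.8%, against 23.3%). A long YY1 motif occurred in 2 (7.41%, against 3.48%), and TATAAA in 1 (3.70%, against 6.74%). The NRF1 motif, CTTTGA, a TCF motif, and CAGCTG each occurred in 4 (14.8%), against 13%, 10.3% and 12.3%. TGTGGT, a Runx motif, occurred in 3 (11.1%, against 10.3%) and TGACGTCA, the CREB motif, in none (against 5.46%). With so few windows, most of these shares are near those of all acetylated genes. Genes were called by gene ends, so a counted window need not lie under a peak. The TATAAA match was at Smarcd2 and 1 TGTGGT match at Setd5, which had no peak within 1 kb of the listed start. Both are among these 27 members but not among the 27 genes with bp shared near a start, which include Kdm4c and Kdm6a instead.

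Neighbouring genes could not be separated from the members at many ends. Of the 37 acetylated members, 14 (37.8%) had a gene-end peak that also lay at an end of another protein-coding gene, as did 38.7% of all acetylated genes. Of 36 members with a shared region at a gene end, 11 (30.6%) had the end of a long noncoding RNA gene there as well, against 12.3% of 3539 genes. A peak at such a place cannot be assigned to 1 of the genes.

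Partner genes of the same complexes and other enzymes of the same marks were acetylated in 53 of 86 cases (61.6%, against 17% of all genes). The lists were chosen with earlier results of these data known, so this share is a description only. Of 8 genes of Polycomb repressive complex 2, which methylates H3K27, 6 were acetylated. Ezh2, its catalytic subunit, had 1703 covered bp, Suz12 had 1364 bp, Eed 1193 bp, Jarid2 1732 bp, Mtf2 1352 bp and Rbbp4 475 bp. Ezh1, the alternative catalytic subunit, had none, and Rbbp7 had a peak in replicate 1 only. Of the 14 other methyltransferases 9 were acetylated, with Nsd3 at 1949 bp, Prmt1 at 1458 bp and Dot1l at 1137 bp. Carm1 and Prmt5 were marked in replicate 2 only and Ehmt1 in replicate 1 only. Among 7 COMPASS partners, which join the Kmt2 and Setd1 enzymes, Wdr5, Cxxc1 and Paxip1 were acetylated. With replicate 1 by itself 5 were (against 25.4% of all genes).

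Partners of deacetylases were acetylated more often than the Hdac genes (1 of 11), a difference that was not tested. The share of all genes was 17%. With replicate 2 by itself Hdac had 5 of 11, corepressor partners 6 of 8 and NuRD partners 5 of 7, against 22.5% of all genes. Of 8 corepressor partners 6 were acetylated in both replicates, led by Sap30 (2693 bp), Gps2 (2332 bp) and Sin3a (1727 bp). Sin3b had a peak in replicate 1 only. Of 7 NuRD partners 5 were, among them Mta2 (1984 bp), Mbd3 (1610 bp) and Gatad2a (1489 bp). Of 7 sirtuins, the NAD-dependent deacetylases, Sirt4 and Sirt7 were. None of the 7 was by listed starts (against 18.4%), and 4 were with replicate 2 by itself (against 22.5%). Among 8 other remodeller genes, ATPases and large partner subunits, 7 were, with Baz2a (1861 bp), Baz1b (1477 bp) and Ino80 (1428 bp) first, and Hells was marked in replicate 1 only. Of 14 BAF and PBAF partners 6 were, among them Arid1b (2683 bp) and Arid2 (1953 bp). With a window of 2.5 kb 10 were (against 19.1%). Arid1a, with 2424 covered bp, had no gene-end peak, but peaks of both replicates came within 1 kb of a listed start. Of 13 partners of acetyltransferases 9 were, with Ep300 (1621 bp), Jade2 (1395 bp) and Ing5 (1168 bp) first.

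**Figure D5:**
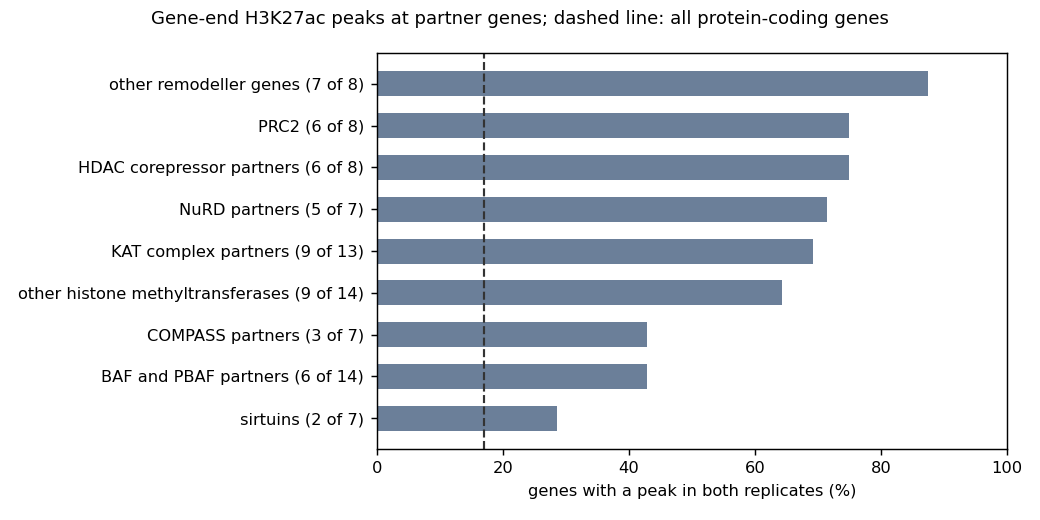
Share of each list of partner genes with a gene-end peak in both replicates, in percent, with counts beside the names. The dashed line gives all protein-coding genes (17%). With this call each list lies above the line, from sirtuins (28.6%) to other remodeller genes (87.5%).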

How the data were processed

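ChIP-seq of H3K27ac gave 2 replicates of 1 group. The submitters' processing notes name Bowtie2, mm10 and MACS 1.4.2, although the deposited lists have the broad peak layout of MACS2. Each sample has its own list, whose peak names carry the tag rmdup. The caller's cutoff and control: not given in the sources used here. For each peak the authors deposited a fold enrichment (a ratio), a −log10 p-value, a −log10 q-value and a score, which were used to describe and filter peaks, except the score, which was not used. Gene positions, listed starts and sequences are those of RefSeq, GRCm38.p6. Start windows were listed for 17274 genes, 58 of them members. For genes with several, the window with most bp under both replicates was taken.

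Genes were marked when a peak touched the window of 1 kb around a gene end, and overlap needed 1 bp. No test was made, since there is 1 group of 2 lists. The members, the partner lists and the role groups were chosen with earlier results of these data known. Named are all members, the acetylated members of each list or its leading ones, and at most 3 others. The code was checked on simulated peaks. Alternatives were a window of 2.5 kb, either replicate, each replicate alone, overlapping peaks, q of at most 0.05 or 1e-05, the 10000 peaks of smallest p, listed starts alone and other windows for covered length, with runs without chromosomes 6, 9, 14 and 17 and the split at 10 CpG added after seeing the data. Depth is unknown, so no counting interval is given. Computations used Python 3.11.15, numpy 2.4.6 and pandas 2.3.3.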

Additional observations from a re-analysis of the deposited data

How the results depend on the processing

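The count of 37 acetylated members stayed within 1.5 times under the window of 2.5 kb (43, against 19.1% of all genes), overlapping peaks (36, against 16.4%), the 10000 peaks of smallest p (31, against 14.7%), listed starts alone (28 of 58) and without chromosomes 6, 9, 14 and 17 (28 of 58), and ranged from 44 to 49 with a single replicate. It was 56 with a peak in either replicate, against 30.9% of all genes, where Kdm had 13 and Hdac 5. Hdac was also 3 within 2.5 kb (Hdac1 and Hdac7 joined) and 1 to 5 with a single replicate, so its low count depends on both replicate 1 and the window. With q of at most 0.05 the count was 11, with Kdm 2, Kmt 1, Setd 3, Kat 1, Hdac 0, Chd 1 and Smarc 3, partner genes were 10 and the median covered length was 0 bp. With q of at most 1e-05 it was 3 (Kdm4d, Kdm5a and Smarca4), with Kdm 2, Smarc 1, the other families 0 and partner genes 2. With q of at most 0.05 and without those chromosomes it was 5, with Kmt, Setd, Kat, Chd and Smarc 1 each, Kdm and Hdac 0 and partner genes 4. Setd was 3 by listed starts and 3 without those chromosomes, and Chd was 3 by listed starts and 3 with the 10000 peaks of smallest p. Fewer genes could be counted by listed starts or without those chromosomes, and the other causes were not tested. The median covered length of 313 bp was 250 bp within 10 kb, 496 bp within 50 kb, 293.5 bp without those chromosomes and 804 to 950 bp with a single replicate. Within 2.5 kb the genes added were Hdac1, Hdac7, Kat6b, Kdm6a, Kdm6b and Smarca2. No paired analysis was possible because there is 1 group and no contrast. Absent peaks do not show absent acetylation, since depth is unknown.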
